A study of Mus musculus with 20 samples.

Results

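Cd79a, Cd79b, Ms4a1, Pax5, Cr2, Fcer2a, Blk and Cd22 are genes by which B lymphocytes are recognised, and they were followed across RNA-seq libraries of mouse pancreatic tumours. They were chosen by gene symbol, with earlier results of these data known, and are 8 of the 46983 genes counted. Each of the 8 was found in the count table and passed the filter on low counts in every comparison. A B cell senses antigen with a membrane immunoglobulin that cannot signal alone: its partners CD79A and CD79B carry the signalling tails, kinases such as BLK phosphorylate them, and CD22 dampens the signal. CR2 brings complement-tagged antigen to the same receptor, MS4A1 (CD20) and FCER2A (CD23) are surface proteins of mature B cells, and the transcription factor PAX5 holds cells in the B lineage until they become plasma cells. B cells and plasma cells infiltrate pancreatic tumours, where B cells can gather with T cells in lymphoid aggregates.

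The tumours had grown for 2 weeks in the pancreas of C57BL/6 mice after injection of a cultured KPC pancreatic cancer line, and no treatment was given. The hosts were IL33-/- mice or wild-type (WT) mice, so all groups carry the same injected tumour line. There were 4 groups of 5 libraries: CD45+ leukocytes enriched on magnetic beads from IL33-/- hosts, the same from WT hosts, bulk tumour from IL33-/- hosts and bulk tumour from WT hosts. The labels name 5 hosts per genotype without tying libraries to mice or sorted libraries to bulk ones, and a p-value here speaks to the spread from library to library, part of which may be technical.

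Libraries held 51.3 to 81.0 M counts in genes (M, mega; median 59.5 M), and 3 counts stood for 0.0327 to 0.0686 CPM (counts scaled to library size, corrected by TMM factors of 0.762 to 1.25). Il33 was counted in every library. Its level was 14.3 to 25.7 CPM in sorted libraries labelled IL33KO and 5.76 to 20.6 CPM in sorted WT libraries, and 37.0 to 56.3 CPM in bulk libraries labelled IL33KO and 53.6 to 66.7 CPM in bulk WT libraries. Which exons the IL33-/- allele lacks is not stated in the labels, and cells of the injected line do not carry the host genotype. A gene-level count therefore cannot check the genotype, and the groups are named by their labels. Ptprc, which encodes CD45 itself, stood at 599 CPM or more in every sorted library and at 112 CPM or less in every bulk library.

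Promoter sequence in RefSeq (GRCm38.p6) was at hand for 5 of the 8 genes. The 250 bases before the RefSeq start are shown for the 3 in which a searched motif was found. Capitals mark the match, and each sequence reads 5′ to 3′ on the gene's strand.
Cd79a: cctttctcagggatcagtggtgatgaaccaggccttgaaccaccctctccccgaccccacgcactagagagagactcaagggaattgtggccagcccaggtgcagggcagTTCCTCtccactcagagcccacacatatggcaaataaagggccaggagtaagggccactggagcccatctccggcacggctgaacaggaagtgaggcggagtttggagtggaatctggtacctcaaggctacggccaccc
Fcer2a: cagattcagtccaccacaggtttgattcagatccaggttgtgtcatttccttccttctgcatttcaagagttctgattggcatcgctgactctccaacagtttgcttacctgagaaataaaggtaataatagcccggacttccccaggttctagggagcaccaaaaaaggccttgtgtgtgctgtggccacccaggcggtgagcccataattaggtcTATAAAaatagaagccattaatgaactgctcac
Cd22: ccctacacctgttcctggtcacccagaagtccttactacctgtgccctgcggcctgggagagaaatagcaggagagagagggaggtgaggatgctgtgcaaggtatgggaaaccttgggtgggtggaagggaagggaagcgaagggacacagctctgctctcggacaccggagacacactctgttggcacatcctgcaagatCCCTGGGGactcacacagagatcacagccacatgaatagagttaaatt
The Cd79a stretch (chr7:24897247-24897496, plus strand) holds the reverse complement of GAGGAA, a core recognised by the factor PU.1, and the match ends 135 bases before the start. The Fcer2a stretch (chr8:3694175-3694424, minus strand), 1 of its RefSeq entries, holds the TATA box letters, TATAAA, and the match ends 28 bases before the start. The Cd22 stretch (chr7:30879029-30879278, minus strand) holds CCCNNGGG, a core recognised by EBF1, ending 41 bases before the start. Both strands were searched for these and for the octamer ATGCAAAT, which is bound by Oct factors. Each printed stretch held a single match, and the octamer was found in none. Among 32851 promoter entries of the same length, GAGGAA was present in 23.3%, the TATA box letters in 12.4%, CCCNNGGG in 11.8% and the octamer in 1.6%. The Pax5 and Cr2 stretches held none of the 4. RefSeq and GENCODE place some starts differently: the Cd22 stretch lies wholly inside the GENCODE gene span given below, downstream of its start, and the Cd79a stretch runs past the GENCODE start. These matches describe letters in the window and say nothing of binding.

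The 2 signalling partners of the B cell receptor were the most abundant of the 8 genes. Cd79a (ENSMUSG00000003379.7, chromosome 7, 24897381 to 24902197, mm10, plus strand) stood at 303, 313, 162, 43.9 and 48.1 CPM in sorted libraries 1 to 5 labelled IL33KO, against 159, 152, 193, 97.5 and 73.3 CPM in sorted WT libraries 1 to 5. The 2 highest and the 2 lowest of the 10 values were both among the libraries labelled IL33KO, so the groups overlapped throughout. In bulk tumour Cd79a stood at 1.61, 3.13, 2.42, 7.08 and 43.3 CPM in libraries 1 to 5 labelled IL33KO, against 0.467, 0.381, 14.98, 0.673 and 9.07 CPM in WT libraries 1 to 5. WT bulk libraries 1, 2 and 4 were all below every other bulk library, and bulk IL33KO 5 was above all others.

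Cd79b (ENSMUSG00000040592.11, chromosome 11, 106311341 to 106314762, minus strand), the partner chain, followed the same order closely. It stood at 215, 204, 150, 32.3 and 38.6 CPM in sorted libraries labelled IL33KO, against 121, 108, 176, 85.9 and 50.2 CPM in sorted WT libraries. In bulk tumour the values were 2.82, 3.30, 3.64, 8.54 and 37.3 CPM in libraries labelled IL33KO, against 1.19, 1.45, 15.2, 1.62 and 10.6 CPM in WT libraries. As for Cd79a, the groups overlapped in both compartments, with bulk IL33KO 5 highest and WT bulk libraries 1, 2 and 4 lowest.

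Blk (ENSMUSG00000014453.3, chromosome 14, 63372836 to 63417037, minus strand), a Src-family kinase of the receptor, matched the others in sorted leukocytes and departed from them in bulk tumour. It stood at 39.6, 25.9, 26.03, 7.61 and 8.49 CPM in sorted libraries labelled IL33KO, against 19.7, 13.0, 18.4, 10.1 and 8.29 CPM in sorted WT libraries. In bulk tumour it stood at 14.6, 5.55, 11.8, 9.47 and 19.96 CPM in libraries labelled IL33KO, against 6.75, 6.63, 7.30, 6.51 and 11.0 CPM in WT libraries. The bulk groups overlapped, and WT bulk libraries 1, 2 and 4, which were almost empty of Cd79a, kept a Blk level close to that of WT bulk library 3. The highest Blk value was 3.6 times the lowest over the 10 bulk libraries, whereas that ratio was 114 for Cd79a and 142 for Pax5.

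Cd22 (ENSMUSG00000030577.13, chromosome 7, 30865402 to 30880342, minus strand), an inhibitory sialic acid-binding receptor of B cells, was the least variable of the 8 genes in sorted leukocytes. It stood at 169, 134, 96.9, 59.4 and 71.3 CPM in sorted libraries labelled IL33KO, against 92.5, 84.3, 101, 66.2 and 65.9 CPM in sorted WT libraries. The highest was 2.85 times the lowest, against 5.2 to 12.2 times for the other 7 genes. In bulk tumour Cd22 stood at 8.76, 9.32, 6.09, 11.5 and 29.4 CPM in libraries labelled IL33KO, against 4.91, 4.98, 14.3, 5.47 and 12.3 CPM in WT libraries. The groups overlapped in both compartments, and Cd22, like Blk, kept a level in the WT bulk libraries that held least Cd79a. Exons of an antisense gene (Gm29439) overlap Cd22, and the strand setting of the counting is not given in the sources used here, so its counts may include that gene's reads.

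Cr2 (ENSMUSG00000026616.14, chromosome 1, 195136811 to 195176716, minus strand), the complement receptor CD21 of mature B cells and of follicular dendritic cells, had the widest spread in sorted leukocytes. It stood at 60.8, 36.7, 41.1, 4.99 and 8.24 CPM in sorted libraries labelled IL33KO, against 19.8, 8.32, 17.6, 7.13 and 6.08 CPM in sorted WT libraries. Libraries 1, 2 and 3 labelled IL33KO were above every WT library, while library 4 was below every WT library. In bulk tumour Cr2 stood at 0.403, 0.822, 0.422, 3.41 and 7.24 CPM in libraries labelled IL33KO, against 0.0907, 0.141, 3.21, 0.0687 and 0.814 CPM in WT libraries. WT bulk libraries 1, 2 and 4 were at a few counts each and the groups overlapped.

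Ms4a1 (ENSMUSG00000024673.9, chromosome 19, 11249675 to 11266241, minus strand) encodes CD20, a membrane protein of B cells from the precursor to the mature stage. It stood at 144, 122, 103, 14.9 and 18.4 CPM in sorted libraries labelled IL33KO, against 48.2, 30.1, 132, 22.4 and 18.8 CPM in sorted WT libraries. WT library 3 lay among the high libraries labelled IL33KO and the other 4 WT libraries lay below them. In bulk tumour it stood at 0.937, 1.31, 0.890, 3.91 and 19.8 CPM in libraries labelled IL33KO, against 0.350, 0.310, 5.75, 0.247 and 3.45 CPM in WT libraries, and the groups overlapped. An antisense gene (4930526L06Rik) spans part of Ms4a1 without overlapping its exons.

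Fcer2a (ENSMUSG00000005540.9, chromosome 8, 3681737 to 3694175, minus strand) encodes CD23, the low-affinity IgE receptor that marks follicular B cells. It stood at 95.3, 69.0, 34.7, 10.9 and 11.0 CPM in sorted libraries labelled IL33KO, against 35.1, 21.1, 29.9, 11.1 and 14.1 CPM in sorted WT libraries. In bulk tumour it stood at 0.370, 0.780, 0.515, 2.02 and 10.2 CPM in libraries labelled IL33KO, against 0.142, 0.0987, 3.56, 0.124 and 2.08 CPM in WT libraries. The groups overlapped in both compartments, with sorted IL33KO 4 and 5 below every sorted WT library.

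Pax5 (ENSMUSG00000014030.15, chromosome 4, 44524757 to 44710487, minus strand), the lineage-defining transcription factor, stood at 121, 92.6, 39.9, 12.6 and 14.5 CPM in sorted libraries labelled IL33KO, against 45.6, 30.0, 38.2, 20.6 and 17.2 CPM in sorted WT libraries. In bulk tumour it stood at 0.795, 1.02, 0.640, 4.00 and 12.9 CPM in libraries labelled IL33KO, against 0.0907, 0.268, 4.36, 0.151 and 2.39 CPM in WT libraries. The groups overlapped in both compartments. Antisense genes Gm12462 and 5730488B01Rik share exonic sequence with Pax5, so its counts carry the same strand uncertainty as those of Cd22.

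**Figure D1:**
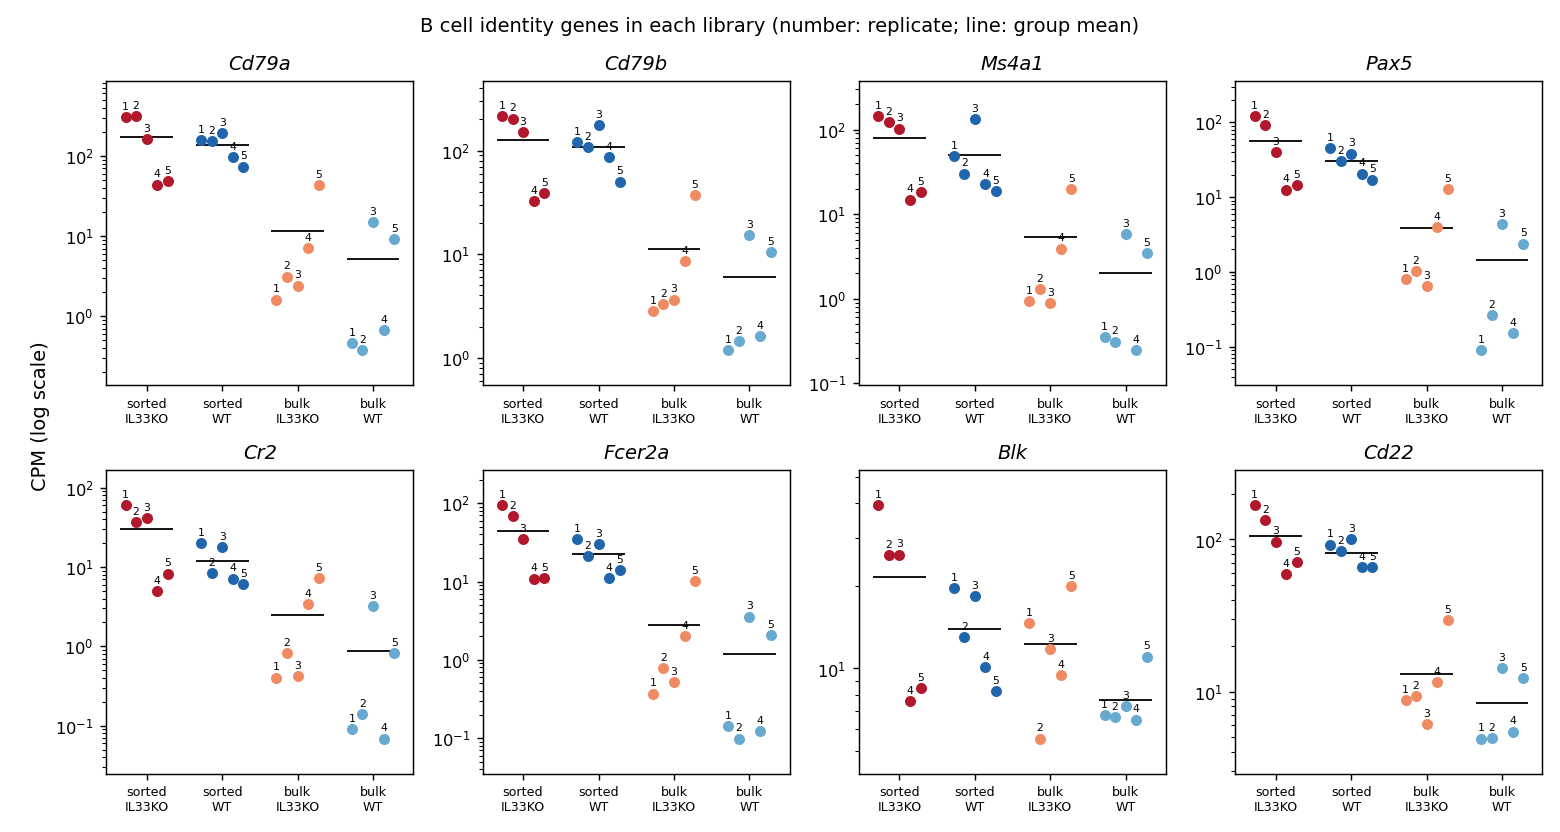
CPM (log scale) of each gene in the sorted and bulk libraries labelled IL33KO and WT; each point is 1 library with its replicate number, and the line is the group mean. Sorted IL33KO 4 is the lowest sorted library and bulk IL33KO 5 the highest bulk library for all 8 genes. WT bulk libraries 1, 2 and 4 are the lowest bulk libraries for every gene but Blk.

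Across genes, levels were compared as CPM per kilobase of exon. In the 10 sorted libraries Cd79a averaged 106 CPM per kilobase and Cd79b 82.5, followed by Cd22 at 18.6, Fcer2a at 10.7, Ms4a1 at 10.6, Blk at 6.57, Pax5 at 4.88 and Cr2 at 2.6. Each of the first 3 was above the next gene in 10 of 10 libraries. Fcer2a exceeded Ms4a1 in 7 and Ms4a1 exceeded Blk in 6 of 10 libraries, so the order among these was not kept from library to library. In the 10 bulk libraries Cd79b (5.98 CPM per kilobase) and Cd79a (5.71) again led, but Blk came next at 3.69 and was above Cd79a in 5 of 10 libraries.

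The comparison of sorted leukocytes labelled IL33KO with sorted WT leukocytes asked whether B cell transcripts differ when the host carries the IL33-/- genotype. None of the 8 genes passed the edgeR quasi-likelihood test after Benjamini-Hochberg adjustment over all 16731 genes tested (adjusted p 0.443 to 0.888), and over all genes 0.012% were called in either direction. All 8 log2 differences were positive, with a median of 0.67, beside a median of 0.02 and 53.7% positive values over all genes tested. The 8 genes rose and fell together across the sorted libraries, so their signs are not 8 separate observations and carry no test. Cr2 had the largest value, averaging 30.4 ± 23.5 CPM in libraries labelled IL33KO and 11.8 ± 6.42 CPM in WT libraries (SD, n = 5 each), a log2 difference of 1.37 (SE 0.68, adjusted p = 0.443). Fcer2a followed at 44.2 ± 37.2 and 22.3 ± 10.2 CPM (log2 1.00, SE 0.64, adjusted p = 0.550), and Pax5 at 56.1 ± 48.6 and 30.4 ± 11.9 CPM (log2 0.89, SE 0.64, adjusted p = 0.597), libraries labelled IL33KO first. The SD of the libraries labelled IL33KO was larger than that of the WT libraries for all 8 genes.

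The remaining 5 genes differed less in sorted leukocytes. Ms4a1 averaged 80.4 ± 60.1 CPM in libraries labelled IL33KO and 50.3 ± 47.1 CPM in WT libraries (log2 0.69, SE 0.76, adjusted p = 0.752), and without sorted WT 3 its log2 difference was 1.42. Blk averaged 21.5 ± 13.5 and 13.9 ± 5.01 CPM in the same order (log2 0.64, SE 0.45, adjusted p = 0.589), and Cd22 averaged 106 ± 45.3 and 82.0 ± 15.7 CPM (log2 0.38, SE 0.26, adjusted p = 0.578). The receptor partners had the smallest values, Cd79a with 174 ± 131 CPM in libraries labelled IL33KO and 135 ± 48.6 CPM in WT libraries (log2 0.38, SE 0.57, adjusted p = 0.827) and Cd79b with 128 ± 87.9 and 108 ± 46.6 CPM (log2 0.25, SE 0.56, adjusted p = 0.888). Without sorted IL33KO 1, Cd79b turned to −0.0088. For none of the 8 genes did the groups separate, and over all genes 3.7% did. At an unadjusted p under 0.05 edgeR listed 2156 genes, none of them a member, and neither DESeq2 nor limma voom called any of the 8.

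In sorted leukocytes and in bulk tumour alike, B cells were mixed with other cells. A different number of B cells and a different amount of RNA per cell therefore cannot be told apart in either. None of the 8 genes passed the edgeR test in bulk tumour (adjusted p 0.724 to 0.769), and the share called over all 17258 genes tested was 0%. There were 1098 genes with an unadjusted edgeR p under 0.05, and Blk was the member among them. All 8 values were positive here too, with a median log2 difference of 1.18, beside 0.01 over all genes, of which 51.2% were positive. As in sorted leukocytes, these signs are not 8 separate observations. Cr2 averaged 2.46 ± 2.95 CPM in libraries labelled IL33KO and 0.865 ± 1.35 CPM in WT libraries (log2 1.5, SE 1.14, adjusted p = 0.730). Pax5 averaged 3.86 ± 5.22 and 1.45 ± 1.89 CPM in the same order (log2 1.40, SE 1.15, adjusted p = 0.739), Ms4a1 5.37 ± 8.18 and 2.02 ± 2.49 CPM (log2 1.40, SE 1.12, adjusted p = 0.736), and Fcer2a 2.78 ± 4.20 and 1.20 ± 1.57 CPM (log2 1.20, SE 1.18, adjusted p = 0.758). In these 4 genes the SD exceeded the mean in both groups.

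Cd79a averaged 11.5 ± 17.9 CPM in bulk libraries labelled IL33KO and 5.12 ± 6.65 CPM in bulk WT libraries (log2 1.16, SE 1.23, adjusted p = 0.769), and Cd79b 11.1 ± 14.8 and 6.00 ± 6.48 CPM (log2 0.88, SE 0.93, adjusted p = 0.769). Blk averaged 12.3 ± 5.43 CPM in libraries labelled IL33KO and 7.65 ± 1.92 CPM in WT libraries, a log2 difference of 0.67 with the smallest standard error of the 8 (SE 0.30, adjusted p = 0.724). Cd22 averaged 13.0 ± 9.37 and 8.38 ± 4.53 CPM in the same order (log2 0.62, SE 0.46, adjusted p = 0.727). No gene of the 8 separated the bulk groups, and 0.655% of all genes did.

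A single library decided the direction of several bulk values. Without bulk IL33KO 5 the log2 difference was −0.53 for Cd79a, −0.40 for Cd79b, −0.39 for Fcer2a and −0.21 for Ms4a1, while Cr2 (0.54), Blk (0.43), Pax5 (0.14) and Cd22 (0.08) stayed positive. Without bulk WT 3 the values were larger for 7 genes, up to 3.11 for Cr2, and 0.65 for Blk. DESeq2 called none of the 8 in bulk tumour, and limma voom with sample quality weights, which weights libraries by their scatter, called 6, all but Cd79b and Blk (adjusted p 0.0182 to 0.039 for the 6). Its log2 differences ran from 0.93 for Cd22 to 3.67 for Pax5, and it called 3371 genes in all.

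**Figure D2:**
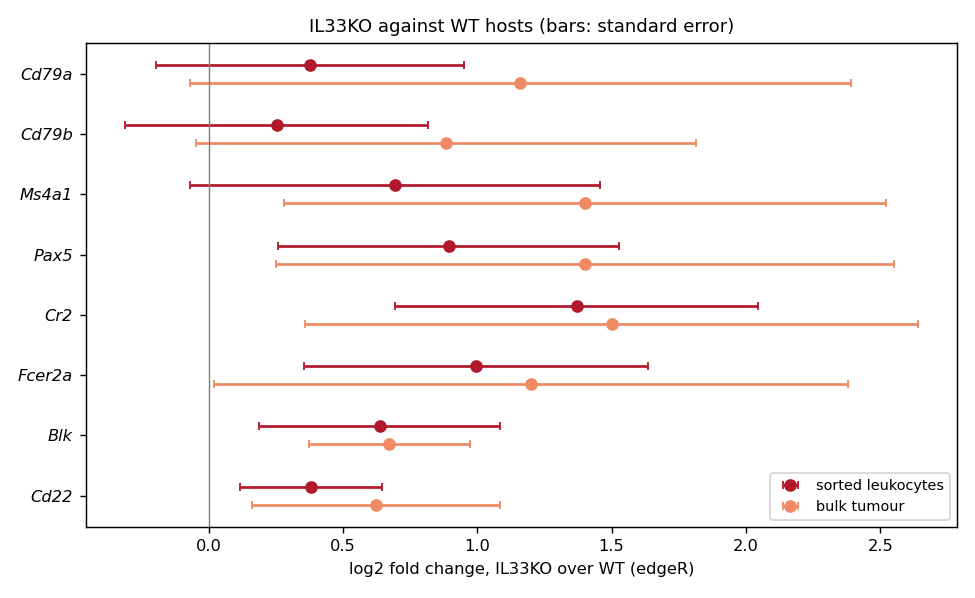
Log2 fold change of libraries labelled IL33KO over WT libraries (edgeR) for each gene in sorted leukocytes and in bulk tumour; points are estimates and bars the standard error, from 5 libraries per group. All estimates lie above 0, and the bulk bars of 6 genes are about 1 log2 unit to either side, wider than those of Blk and Cd22.

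T cell and pan-leukocyte transcripts moved with the B cell genes across some bulk libraries and not across all. Bulk IL33KO 5, the library highest in all 8 genes, held a summed T cell marker level (12 genes) of 255 CPM and a pan-leukocyte sum (9 genes) of 1438 CPM, while the other 4 libraries labelled IL33KO held 75.4 to 177 and 724 to 1066 CPM. Bulk WT 1, 2 and 4, lowest in 7 of the 8 genes (all but Blk), held 86.8 to 89.7 CPM of T cell markers and 618 to 625 CPM of pan-leukocyte genes. Bulk WT 3 and 5 held 199.9 and 254 CPM of T cell markers and 1102 and 1431 CPM of pan-leukocyte genes. Bulk WT 5 came close to bulk IL33KO 5 in both sums. The 8 genes summed to 51.7 CPM in bulk WT 5 and to 180 CPM in bulk IL33KO 5. Bulk IL33KO 3 had the lowest T cell sum (75.4 CPM). The 8 genes summed to 26.4 CPM in it, beside 14 to 14.9 CPM in bulk WT 1, 2 and 4. Neutrophil markers (8 genes) summed to 185 and 194 CPM in bulk IL33KO 1 and 2. They summed to 443 to 527 CPM in bulk WT 1, 2 and 4 and to 983 CPM in bulk IL33KO 5. In edgeR, 0 of 12 T cell genes and 0 of 9 pan-leukocyte genes were called between the bulk groups, and every one of them had a positive log2 value. With the mean pan-leukocyte level as a covariate the bulk log2 difference was 0.18 for Cd79a, 0.14 for Ms4a1, −0.03 for Cd79b, 0.36 for Pax5, 0.50 for Cr2, 0.13 for Fcer2a, 0.49 for Blk and 0.06 for Cd22. Fibroblast transcripts (7 genes) summed to 1229 to 4591 CPM in bulk libraries labelled IL33KO and to 902 to 2132 CPM in bulk WT libraries, with 7 of 7 log2 values positive (median 0.96). Acinar transcripts (6 genes, 5 tested) summed to 23.4 to 1347 CPM in bulk libraries labelled IL33KO and to 36.0 to 7946 CPM in bulk WT libraries, with 0 of 5 positive (median −2.2). Bulk WT 5 alone held the 7946 CPM, and bulk WT 1 to 4 held 36.0 to 39.9 CPM. The median sums were 31.0 CPM in bulk libraries labelled IL33KO and 38.3 CPM in bulk WT libraries. No gene of either list was called in edgeR, and the part of these transcripts in the B cell values was not tested. The part of the total leukocyte level in the bulk values was not tested beyond this covariate.

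In sorted leukocytes, the libraries lowest in Cd79a, sorted IL33KO 4 and 5, held pan-leukocyte sums of 9494 and 8021 CPM, beside 8052 to 10250.0 CPM in sorted IL33KO 1, 2 and 3 and 7941 to 10750.0 CPM in the WT libraries. Their T cell sums were 1527 and 1180 CPM, against 592 to 1042 CPM in sorted IL33KO 1, 2 and 3 and 710.1 to 1470.0 CPM in the WT libraries. Acinar cell transcripts (6 genes) ranged from 604 to 36090.0 CPM in sorted libraries labelled IL33KO, with sorted IL33KO 3 highest, and from 530.4 to 3625 CPM in sorted WT libraries. Macrophage transcripts (8 genes) summed to 6018 to 9672 CPM in sorted libraries labelled IL33KO, with the lowest sum in sorted IL33KO 1, the library highest in 7 of the 8 genes (all but Cd79a), and to 10200.0 to 12540.0 CPM in sorted WT libraries, so these sums did not overlap. In edgeR 0 of 8 macrophage genes were called, and 0 of 8 had a positive log2 value (median −0.34). Their part in the B cell values was not tested.

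The difference between the 2 genotype comparisons was tested in 1 fit over all 20 libraries. None of the 8 genes passed (edgeR adjusted p 0.836 to 0.976), and the share called over all 18145 genes was 0%, with 2028 at an unadjusted p under 0.05. DESeq2 and limma voom also called none of the 8. The log2 difference between sorted and bulk effects ran from −0.80 (SE 1.43) for Cd79a to −0.05 (SE 0.57) for Blk, and without bulk IL33KO 5 all 8 values turned positive.

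The comparison of bead-enriched leukocytes with bulk tumour was the one in which B cell genes passed the test. In hosts labelled IL33KO 7 of the 8 genes were higher in sorted leukocytes than in bulk tumour, where 31.3% of all genes tested were called higher in sorted leukocytes. Fcer2a was 15.9-fold higher (log2 3.99, SE 1.11, edgeR adjusted p = 0.00459), Cd79a 15.1-fold (log2 3.92, SE 1.13, adjusted p = 0.00594), Ms4a1 15-fold, Pax5 14.5-fold, Cr2 12.3-fold, Cd79b 11.5-fold and Cd22 8.14-fold (log2 3.03, SE 0.43, adjusted p = 7.18e-06). Blk was at a log2 difference of 0.81 (SE 0.40, adjusted p = 0.0870) and did not pass. It passed at log2 1.00 to 1.05 without sorted IL33KO 4, sorted IL33KO 5 or bulk IL33KO 5. Sorted and bulk libraries did not overlap for Cd79a, Fcer2a and Cd22, and over all genes 24.6% were higher without overlap.

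In WT hosts the same 7 genes were higher in sorted leukocytes, beside 33.7% of all genes. Cd79a was 26.3-fold higher (log2 4.72, SE 1.18, edgeR adjusted p = 0.00179), Ms4a1 24.8-fold, Pax5 20.8-fold, Fcer2a 18.4-fold, Cd79b 18.0-fold, Cr2 13.6-fold and Cd22 9.78-fold (log2 3.29, SE 0.44, adjusted p = 2.33e-06). Blk again did not pass (log2 0.86, SE 0.41, adjusted p = 0.0658), and it passed without sorted WT 5, sorted IL33KO 1, sorted IL33KO 4 or bulk WT 5. Sorted and bulk WT libraries did not overlap for 7 of the 8 genes, all but Blk, and over all genes 26.2% were higher without overlap.

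**Figure D3:**
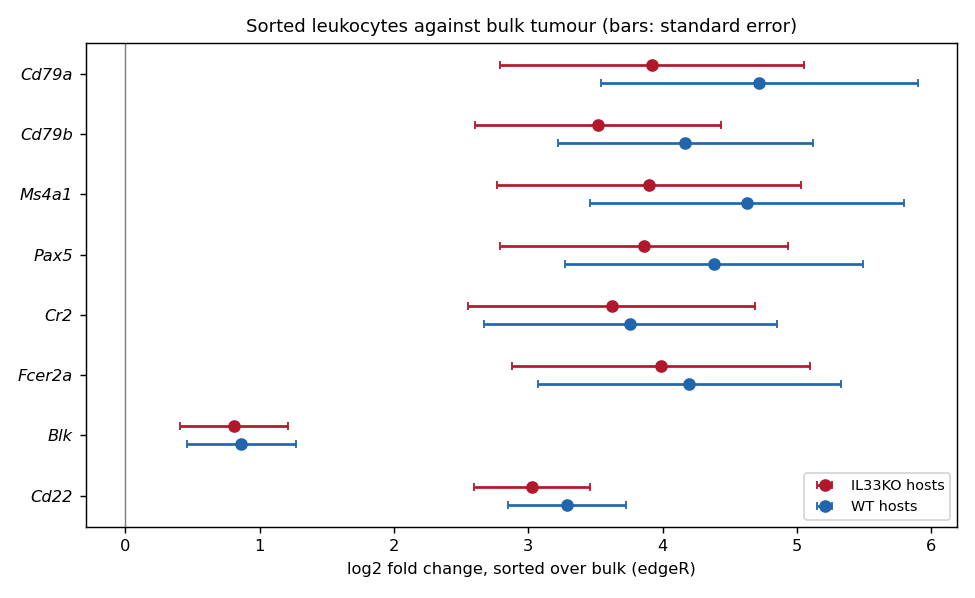
Log2 fold change of sorted leukocytes over bulk tumour (edgeR) for each gene in hosts labelled IL33KO and WT; points are estimates and bars the standard error. Values lie between 3.03 and 4.72 for 7 genes, while Blk lies at 0.81 and 0.86.

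Blk is known from pancreatic beta cells as well as from B cells, so islet transcripts, chosen after values were seen, are given beside it. Ins1 and Ins2, the insulin genes, stood highest in bulk IL33KO 3 (134 and 266 CPM), bulk WT 5 (94.5 and 165 CPM) and bulk WT 3 (38.8 and 72.7 CPM). In bulk WT 1, 2 and 4, where Blk stood at 6.51 to 6.75 CPM, neither insulin gene exceeded 0.275 CPM. The 2 bulk libraries with most Blk, IL33KO 5 and IL33KO 1, had 1.32 and 0.0218 CPM of Ins1. In the 3 libraries with most insulin transcript Blk stood at 11.8 CPM in bulk IL33KO 3, 11.0 CPM in bulk WT 5, the highest WT value, and 7.30 CPM in bulk WT 3. The part of islet transcripts in the Blk level was not tested.

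Relative to Cd79a in the same library, which removes differences in the total amount of B cell RNA that touch both genes alike, the 8 genes kept different proportions. The Cd79b counts were 65.1 to 92.2% of the Cd79a counts in sorted libraries labelled IL33KO and 68.6 to 91.4% in sorted WT libraries. The Cr2 counts were 20, 11.7, 25.3, 11.4 and 17.1% of Cd79a in sorted libraries 1 to 5 labelled IL33KO, against 12.5, 5.46, 9.14, 7.32 and 8.30% in sorted WT libraries 1 to 5. Only the WT library numbered 1 reached the lowest of the libraries labelled IL33KO. For Fcer2a the share was 31.5, 22.1, 21.4, 24.8 and 22.9% in sorted libraries labelled IL33KO, against 22.1, 13.8, 15.5, 11.4 and 19.2% in sorted WT libraries, where again WT library 1 alone reached into the other group. In bulk tumour the Cr2 share was 16.7 to 48.2% in libraries labelled IL33KO and 8.97 to 37% in WT libraries. Plasma cell transcripts (8 genes) summed to 3616 and 3301 CPM in sorted WT 2 and 4, which had the lowest Cr2 and Fcer2a shares. They summed to 5374 CPM in sorted WT 3 and 4891 CPM in sorted IL33KO 2. Their part in these shares was not tested. These ratios were looked at after the levels and carry no test.

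The Ms4a1 share was highest in the library numbered 3 in both genotypes, at 63.5% in sorted IL33KO 3 and 68.4% in sorted WT 3. It was 34.0 to 47.6% in the other sorted libraries labelled IL33KO and 19.8 to 30.4% in the other sorted WT libraries. The outlier check given at the end flagged neither library. The Pax5 share was 24.6 to 39.9% in sorted libraries labelled IL33KO and 19.7 to 28.8% in sorted WT libraries. The Cd22 share was highest, at 135 and 148%, in sorted IL33KO 4 and 5, the libraries lowest in Cd79a. In bulk tumour the Fcer2a share was 21.3 to 28.5% in libraries labelled IL33KO and 18.4 to 30.6% in WT libraries, although Cd79a itself spanned 114-fold there. In bulk WT 1, 2 and 4 this share rests on 11, 7 and 9 Fcer2a counts and 36, 27 and 49 Cd79a counts, so it is poorly measured there. The Blk share in bulk tumour, in contrast, ran from 46.1 to 907% in libraries labelled IL33KO and from 48.7 to 1740.0% in WT libraries.

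**Figure D4:**
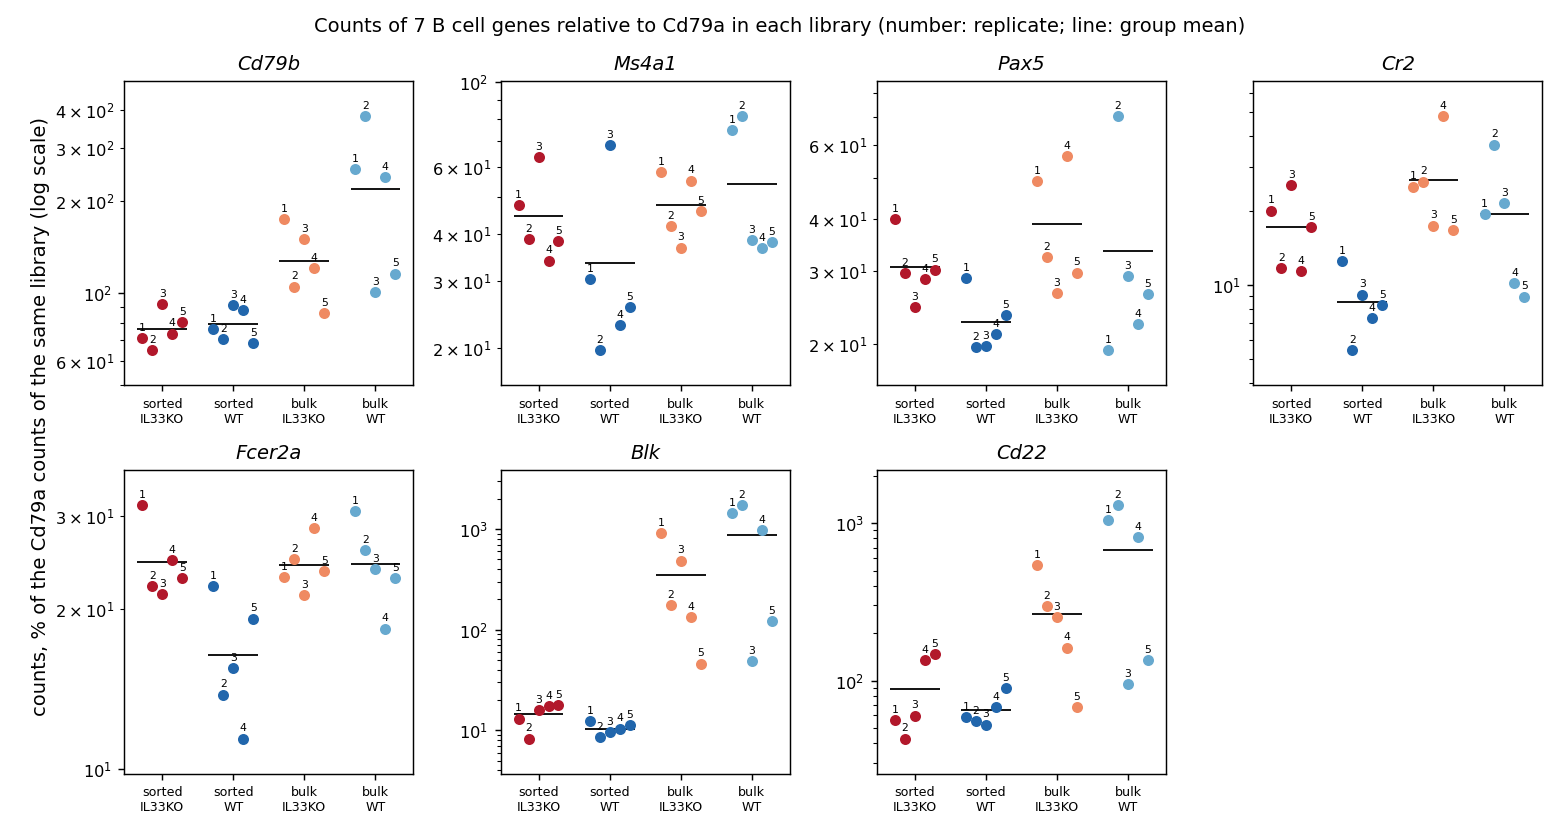
Counts of 7 genes as a percentage of the Cd79a counts of the same library (log scale), in sorted and bulk libraries labelled IL33KO and WT; points are libraries with their replicate number and lines group means. The Fcer2a share in bulk tumour lies between 18.4 and 30.6%, while the Blk share spans 46.1 to 1740.0%. In bulk WT 1, 2 and 4 the Fcer2a share rests on only 7 to 11 Fcer2a counts.

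Genes outside the 8 were ranked by how closely they followed the mean profile of the 8 over the 20 libraries, as the root-mean-square difference of log2 CPM after centring each gene within sorted and within bulk libraries. Among 12574 genes the closest 8 were Fcrla (0.267), an Fc receptor-like protein of B cells, Chst3 (0.292), a chondroitin sulfotransferase, Cxcr5 (0.338), the receptor for the follicle chemokine CXCL13, Fcmr (0.357), an IgM Fc receptor, Tnfrsf13c (0.361), the BAFF receptor, Spib (0.390), an Ets-family factor, Aff3 (0.410), and B3gnt5 (0.442), a glycosyltransferase. The median over all ranked genes was 1.32. Set against the mean of the other 7 members, Cd79b was closest (0.296) and Blk farthest (1.07). Blk differed by 0.234 over sorted libraries, the smallest value of the 8, and by 1.5 over bulk libraries, the largest.

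Lists of other genes used by B cells showed the same absence of calls by genotype. Among 13 receptor signalling genes none was called in sorted leukocytes labelled IL33KO against WT, and 5 of 13 had positive log2 values (median −0.08). The sum of this list spanned 2359 to 3099 CPM over the sorted libraries, while that of the 8 genes spanned 187 to 1148 CPM. Which cells these signalling transcripts came from was not tested, and their sum cannot be read as that of B cells alone. The smallest edgeR p-values in this list were those of Cd72, at −0.27 (SE 0.13, adjusted p = 0.435), and Cd81, at −0.18 (SE 0.09, adjusted p = 0.438). Bank1, an adaptor, came next at 0.76 (SE 0.42, adjusted p = 0.482). Of 8 B lineage transcription factors none was called and 7 were positive (median 0.45), with Bach2, a repressor of plasma cell differentiation, at 0.83 (SE 0.37, adjusted p = 0.379). Of 10 other surface genes none was called and 8 were positive (median 0.39). In bulk tumour none was called in these 3 lists either, and 8 of 13, 6 of 8 and 9 of 10 were positive.

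Antibody and plasma cell transcripts had the opposite sign in sorted leukocytes, also without a call. Of 8 immunoglobulin constant genes 1 was positive (median −0.51): Ighd, the IgD constant gene of naive B cells, at log2 1.03 (SE 0.63, adjusted p = 0.528), while Ighm stood at −0.93 (SE 0.78, adjusted p = 0.670). Of 8 plasma cell genes 1 was positive (median −0.48), with Mzb1, an endoplasmic reticulum chaperone, at −1.06 (SE 0.84, adjusted p = 0.645). Summed immunoglobulin constant levels were 25170.0, 94490.0, 11050.0, 3450.0 and 7495 CPM in sorted libraries labelled IL33KO, against 22150.0, 77290.0, 71560.0, 53480.0 and 11060.0 CPM in sorted WT libraries. The groups overlapped, and sorted IL33KO 3, which had more Cd79a than sorted IL33KO 4 and 5, held less of these transcripts than 4 of the WT libraries, and nearly the same as the fifth. In bulk tumour 6 of 8 immunoglobulin and 4 of 7 tested plasma cell genes were positive, with none called.

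By bead enrichment these lists behaved like most of the 8. In hosts labelled IL33KO 12 of 13 receptor signalling genes, 7 of 8 transcription factors, 9 of 10 surface genes and 7 of 8 immunoglobulin genes were higher in sorted leukocytes, and in WT hosts 11, 7, 9 and 8 of them, beside 31.3% of all genes in hosts labelled IL33KO and 33.7% in WT hosts. Lists of other leukocytes did likewise: 12 of 12 T cell, 8 of 8 macrophage and 9 of 9 pan-leukocyte genes were higher in sorted leukocytes in both genotypes. Irf4, a factor of activated B cells and plasma cells, was 16.9-fold higher in hosts labelled IL33KO and 30.7-fold in WT hosts (edgeR adjusted p = 4.03e-06 and 4.86e-07). Sdc1, which encodes CD138 and is expressed by epithelia as well as plasma cells, was lower in sorted leukocytes in both (log2 −1.79 and −1.83, SE 0.18 each, adjusted p = 9.93e-08 and 4.76e-08).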

How the data were processed

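Poly(A) RNA was sequenced from stranded TruSeq libraries. The submitters' processing notes name Picard, HTSeq, DESeq and mm10; neither an aligner nor a strand setting for the counts is given in the sources used here. The authors deposited raw HTSeq counts per gene for 20 libraries, per the file headers. Its 5 summary lines (26.1 to 40.5% of a library's reads) stayed out of library sizes and tests. The authors also deposited a scaled signal table, counts divided by DESeq size factors, used only as an alternative.

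Counts were tested in R 4.3.3 with edgeR 4.0.16 (filterByExpr, TMM, robust glmQLFit, glmQLFTest, two-sided) over all genes, within sorted or bulk libraries for genotype and over all 20 for the other contrasts, with Benjamini-Hochberg adjustment and a threshold of 0.05. The fits, except sorted against bulk in WT hosts, were tested on simulated counts. A 2-fold change was called in 82% of changed genes between sorted genotypes and in 66% between bulk genotypes. For the difference between compartments it was called in 48%. A 1.5-fold change was called in 28, 12 and 10% in the same order. Smaller true differences could therefore be missed. Log2 CPM used a prior count of 2. Alternatives were DESeq2 1.42.0, limma 3.58.1 (voom), other scalings and filters, a replicate block, a leukocyte covariate and leaving out libraries. Coordinates came from GENCODE M21 (GRCm38), matched by identifier for 46488 genes; lengths are exon unions. Every pair of replicates differed by more than sampling noise (lowest chi-square per gene 18.3). The members and lists were chosen with earlier results of these data known. Named genes were the 8 members, at most 3 per other list by smallest p in a comparison, Il33, and the 8 genes most like the members; Ptprc, Ins1 and Ins2 were chosen after their values were seen. Replicate numbers were not taken as pairs, since correlations of same-numbered deviations were not above 0.1 throughout. This does not exclude a shared batch or a pairing. Between the sorted genotypes, libraries 2, 3 and 5 matched their own number best (0.19, 0.27 and 0.34), and libraries 1 and 4 did not. Between the bulk genotypes library 5 alone did (0.59), and libraries 1 to 4 stood at 0.16, 0.33, −0.12 and 0.26. Between sorted and bulk, library 3 labelled IL33KO (0.30) and WT library 4 (0.17) did, and the others did not. Counting intervals cover counting error only and are not given.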

Additional observations from a re-analysis of the deposited data

Results flagged for a closer look

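Of 60 groups of 5 libraries checked, 1 had a library apart from the rest: Blk in bulk WT 5 stood at a log2 CPM of 3.47, above the other 4 bulk WT libraries. Chance alone sets about 1 in 20 such groups apart.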

How the results depend on the processing

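The 8 genes gave 0 calls by genotype in sorted leukocytes and 0 in the test between compartments under every alternative run; in bulk tumour the count was 0 under every alternative except limma voom, with 6. Sorted against bulk, 7 genes were called under every alternative, and 7 to 8 in each genotype when 1 library was left out. The cause of each change was not tested. In bulk tumour voom gave log2 differences of 2.83 for Cd79a, 2.53 for Ms4a1, 3.67 for Pax5, 3.63 for Cr2, 2.76 for Fcer2a and 0.93 for Cd22. Sorted values turned negative under voom for Cd79a (−0.048) and Cd79b (−0.081), and the bulk value of Cd79b under the leukocyte covariate (−0.031). The replicate block gave 0, 0, 0, 7 and 7 calls in the 5 comparisons and turned Cd79b in sorted leukocytes to −0.033. Whether equal numbers mark pairs is not settled by the same-numbered correlations (−0.26 to 0.59). Leaving out 1 library gave −0.0088 to 0.50 for Cd79b in sorted leukocytes. In bulk tumour it gave −0.53 to 2.11 for Cd79a, −0.40 to 1.57 for Cd79b, −0.21 to 2.29 for Ms4a1 and −0.39 to 2.17 for Fcer2a. For the difference between compartments it gave −1.75 to 0.89 for Cd79a, −1.34 to 0.63 for Cd79b, −1.62 to 0.87 for Ms4a1, −1.52 to 0.73 for Pax5, −1.76 to 0.81 for Cr2, −1.18 to 1.36 for Fcer2a, −0.39 to 0.19 for Blk and −0.54 to 0.28 for Cd22. The stricter filter (1 CPM in 5 libraries) tested 6 of the 8 genes in bulk tumour. Over all genes, sorted genotype calls numbered 2 in edgeR, 476 in DESeq2, 400 in voom, 1 with the block, 12 with the covariate, and 3 without a filter or without both libraries numbered 3; bulk calls numbered 0, 52 in DESeq2 and 3371 in voom; compartment-difference calls numbered 0, 2 in DESeq2, 3406 in voom, and 1 under DESeq2 size factors, the stricter filter or without both libraries numbered 3. Levels below 3 counts, or 0.0327 to 0.0686 CPM, cannot be read, and Cr2, Pax5 and Fcer2a in bulk WT 1, 2 and 4 lie near them.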
